A study of Mus musculus with 8 samples.

Results

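Regulators of G protein signalling, the RGS proteins, were followed as transcripts in RNA recovered with ELAVL1. The members were chosen by name: Rgs2, Rgs3, Rgs4, Rgs5, Rgs10, Rgs12, Rgs14, Rgs16, Rgs17 and Rgs19. Every probe that the array's annotation assigns to one of them was taken, which gave 17 probes for 10 of the 16593 genes on the array, among 25697 probes in all. Rgs3 had 8 probes and each of the other 9 genes had 1.

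The cells were LbetaT2, an immortal mouse pituitary line of the gonadotrope lineage, so the results describe 1 cell line and not the pituitary. In the GnRH group (n = 4) cells kept without serum for 16 h received gonadotropin-releasing hormone for 30 min, and in the vehicle group (n = 4) cells starved in the same way received vehicle for 30 min. Both groups then went through the same pull-down with an ELAVL1 antibody and an Illumina bead array, 1 array per sample. Whether each replicate was its own culture is not stated in the labels, and every p-value therefore reflects only how far these samples differ among themselves, possibly for technical reasons.

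Heterotrimeric G proteins carry the signal of a receptor for as long as their alpha subunit holds GTP. RGS proteins bind the active alpha subunit and speed up its GTP hydrolysis, which shortens the signal. The GnRH receptor of gonadotropes couples mainly to the Gq and G11 alpha subunits, whose effector is phospholipase C beta, and several RGS genes are known from other cells as early feedback genes of such receptors. ELAVL1, also called HuR, binds U-rich and AU-rich stretches of messenger RNA. Each value below is an amount in the ELAVL1 pull-down. RNA from before the pull-down was not analysed here, so less transcript in the cells and less binding by ELAVL1 cannot be told apart, and neither can fewer cells and less RNA per cell.

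On the arrays the median raw signal lay between 33.4 and 42.1, lowest in vehicle replicate 4, and 42.0% to 45.4% of probes were detected, meaning a detection p below 0.05. The lowest signal that counted as detected was between 36.4 and 47.0 on each array. The gonadotrope markers Cga, Gnrhr, Pitx1, Foxl2, Chga and Egr1 were detected on all 8 arrays and Nr5a1 on at most 4 by a single probe, while Lhb and Fshb, which encode the beta subunits of the gonadotropins, were detected on none. Of 8 markers of other pituitary lineages on the array 7 were detected on none, and Sox2 was detected on at most 2 arrays by a single probe. None of the 4 blood markers on the array was detected. Of 8 markers of stroma and endothelium 4 were detected on no array (Col1a1, Col1a2, Col3a1 and Pdgfra), while Pecam1 and Cdh5 were detected on all 8 arrays and Kdr and Acta2 on at most 6 by a single probe. The summed raw signal of the 8 ran from 2022 to 3079 in the GnRH group and from 1686 to 2827 in the vehicle group. With 4 arrays per group, array number sets how precise a value can be.

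Some family members were detected in the pull-down and others were not. No array with a control antibody was among the 8, so detection here does not by itself show binding by ELAVL1. Rgs4, Rgs10, Rgs12, Rgs16 and Rgs19 were detected on all 8 arrays, Rgs3 on some arrays with 3 of its 8 probes, and Rgs2, Rgs5, Rgs14 and Rgs17 on no array of either group. Of the 17 probes 5 were detected on every array and 9 on none. Over the whole array 35.9% of probes were detected on every array and 47.2% on none.

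**Figure D1:**
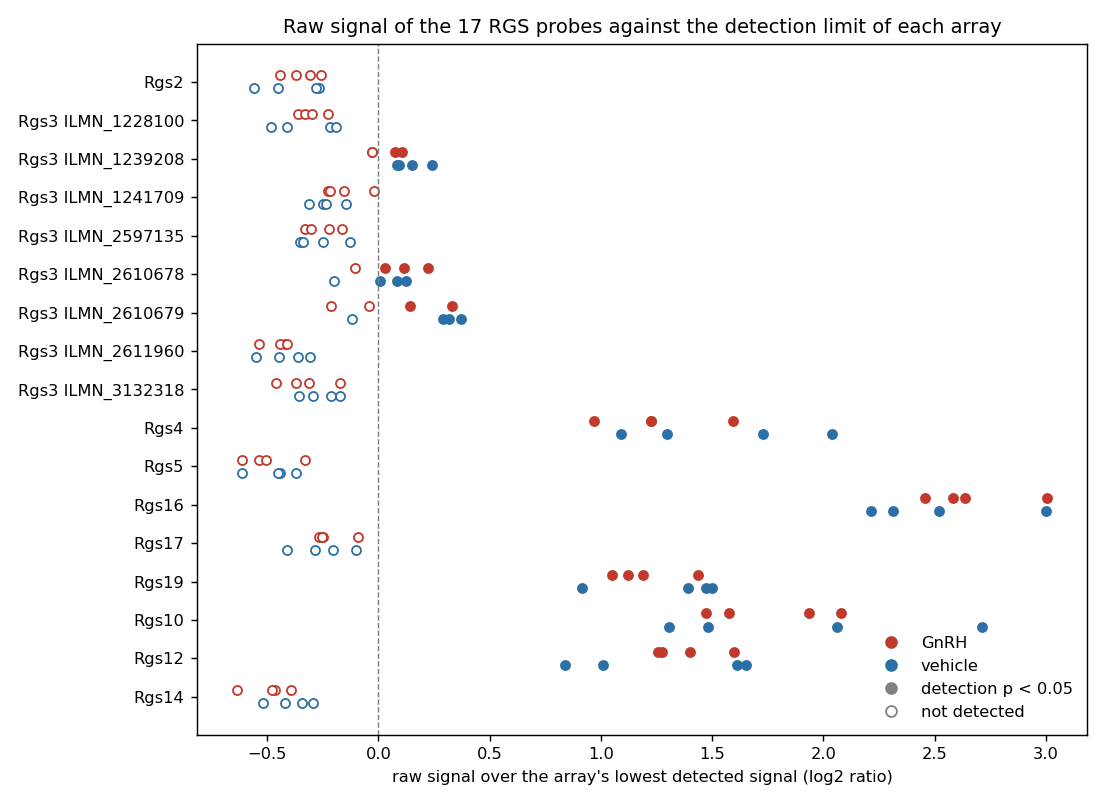
Raw signal of the 17 RGS probes, each divided by the lowest detected signal of its array (log2 ratio on the x axis), with 1 point per array, GnRH in red above vehicle in blue, and filled points where the detection p was below 0.05. Rgs4, Rgs16, Rgs19, Rgs10 and Rgs12 lie to the right of the dashed line on all 8 arrays, 3 Rgs3 probes lie around it, and the other 9 probes lie to its left with open points only.

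No family member met the test for a difference between GnRH and vehicle. The limma test took probes detected on 4 or more of the 8 arrays, which left 8 probes of 6 members; 5 of the 8 were detected on every array, against 81.6% of all tested probes. Of these 0 passed at a Benjamini-Hochberg adjusted p below 0.05 taken over all 11318 tested probes, where 30 probes (0.265%) passed. At an unadjusted p below 0.05, 0 of the 8 passed in limma, against 329 of all tested probes (2.91%). Changes on the log2 scale, GnRH minus vehicle, lay between -0.41 and 0.10 for the 8 probes. Of these 3 were positive and 5 negative, where 51.9% of all tested probes were negative. The median was -0.19, beside -0.01 over all tested probes. The SEs ran from 0.12 to 0.27, against a median of 0.18 over all tested probes. The 95% confidence intervals from limma, taken per probe, together spanned -0.87 to 0.70 with the processing described here. The 3 tested Rgs3 probes lay so near background that the offset of 16 added before the logarithm compresses their changes, and for these the interval understates what the transcript could have done.

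The R4 subfamily consists of small proteins with little beyond the RGS domain. Rgs2, its member with a known preference for Gq, gave raw signals of 34.3, 35.6, 31.8 and 33.6 on the GnRH arrays and 31.9, 30.3, 32.9 and 30.0 on the vehicle arrays. Detection p-values lay between 0.268 and 0.870, so neither group rose above background. On the GnRH arrays the lowest detected signals were 46.7, 44.1, 41.0 and 40.3, above the Rgs2 signal on each, so a rise of Rgs2 that stayed below these limits would not have been seen. Rgs5, known as a marker of pericytes, gave 32.2, 31.0, 26.8 and 32.1 after GnRH and 34.5, 27.1, 30.6 and 26.6 in vehicle, also below background throughout. Since both groups were below background, no fold change is given for either gene.

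Rgs4, which acts on Gi and Gq alpha subunits, had the lowest p of the 8 probes. Its raw signals were 109, 103, 124 and 78.7 in GnRH replicates 1 to 4 and 116, 137, 163 and 77.5 in vehicle replicates 1 to 4. After normalization these were 6.23, 6.42, 6.74 and 5.97 on the log2 scale with GnRH and 6.57, 6.75, 7.20 and 6.46 with vehicle. The groups overlapped: GnRH replicate 3 lay above vehicle replicates 1 and 4, and the other GnRH arrays lay below every vehicle array. After normalization each GnRH array lay below the vehicle array of the same replicate number, but on the raw scale replicate 4 did not. Whether these numbers mark pairs is not stated in the labels. The means were 6.34 ± 0.32 and 6.75 ± 0.33 (GnRH and vehicle, SD, n = 4 each), a log2 change of -0.41 ± 0.21 (SE, 95% confidence interval -0.87 to 0.06). This is 0.755-fold, and it did not pass (limma unadjusted p = 0.0814, adjusted p = 1.00). With 1 array left out the change lay between -0.54 (without GnRH replicate 3) and -0.25 (without vehicle replicate 3).

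Rgs16, an RGS protein of similar range that is itself inducible in many cells, gave raw signals of 280, 275, 225 and 323 with GnRH and 218, 238, 197 and 291 with vehicle. The normalized log2 values were 7.74, 8.00, 7.72 and 8.35 with GnRH and 7.61, 7.62, 7.49 and 8.71 with vehicle. Vehicle replicate 4 stood above all other arrays after normalization, and the other vehicle arrays lay below all 4 GnRH arrays. The group means were 7.95 ± 0.29 with GnRH and 7.85 ± 0.57 with vehicle (SD, n = 4), with a change of 0.10 ± 0.27 (SE, 95% confidence interval -0.50 to 0.70, limma adjusted p = 1.00). Single arrays decided its size and sign. Without vehicle replicate 4 the change was 0.38 ± 0.18, which did not pass either (limma unadjusted p = 0.0628, adjusted p = 0.947). It was 0.016, 0.019 and -0.024 without vehicle replicate 1, 2 or 3, and 0.17, 0.081, 0.17 and -0.034 without GnRH replicate 1, 2, 3 or 4. Vehicle replicate 4 was also the array with the lowest median raw signal, 33.4. On the raw scale its Rgs16 signal of 291 lay between those of GnRH replicates 1 and 4. The Rgs16 change was 0.24 ± 0.21 without between-array normalization and 0.20 ± 0.21 with median scaling (SE). In these settings the median over all tested probes was 0.11 and 0.07. The part of array brightness in the value of vehicle replicate 4 was not tested.

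Rgs3, a larger relative known to act on Gq and Gi, was read by 8 probes annotated to 3 transcripts. Of these 5 probes were below background on all 8 arrays, with raw signals between 28.4 and 43.0. The other 3 sat at the limit of detection, with 2, 2 and 3 of the 4 GnRH arrays detected (probes ILMN_1239208, ILMN_2610679 and ILMN_2610678) and 4, 3 and 3 of the 4 vehicle arrays. Probe ILMN_1239208 gave raw signals of 45.8, 43.2, 43.1 and 43.3 with GnRH and 50.2, 46.0, 46.9 and 38.6 with vehicle, where vehicle replicate 4 lay below every GnRH array. Its normalized log2 values were 4.61, 4.63, 4.74 and 4.76 with GnRH and 4.85, 4.79, 4.94 and 4.86 with vehicle. After normalization it was the one member probe whose groups did not overlap, with all GnRH arrays below all vehicle arrays, 1 of 8 beside 2.15% of all tested probes separated in either direction. The difference was small, -0.17 ± 0.12 (SE, 95% confidence interval -0.45 to 0.10, limma unadjusted p = 0.186, adjusted p = 1.00). Its within-group SD of 0.07 was smaller than that of nearly all tested probes, at the percentile of 0.406, and limma moves such a spread towards the typical one.

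The other Rgs3 probes did not share this separation. Probe ILMN_2610679 gave 4.59, 4.42, 5.11 and 4.82 with GnRH and 4.54, 5.07, 5.01 and 5.34 with vehicle, a change of -0.25 ± 0.21 with overlapping groups, which ran from -0.41 (without vehicle replicate 1) to -0.14 (without vehicle replicate 4) with 1 array left out. Probe ILMN_2610678 gave 4.94, 4.53, 4.68 and 4.78 with GnRH and 4.45, 4.75, 4.59 and 4.87 with vehicle, a change of 0.07 ± 0.15, opposite in sign to those of the other probes. Averaged over its 3 tested probes, Rgs3 changed by -0.12 ± 0.14 (SE, limma adjusted p = 1.00).

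**Figure D2:**
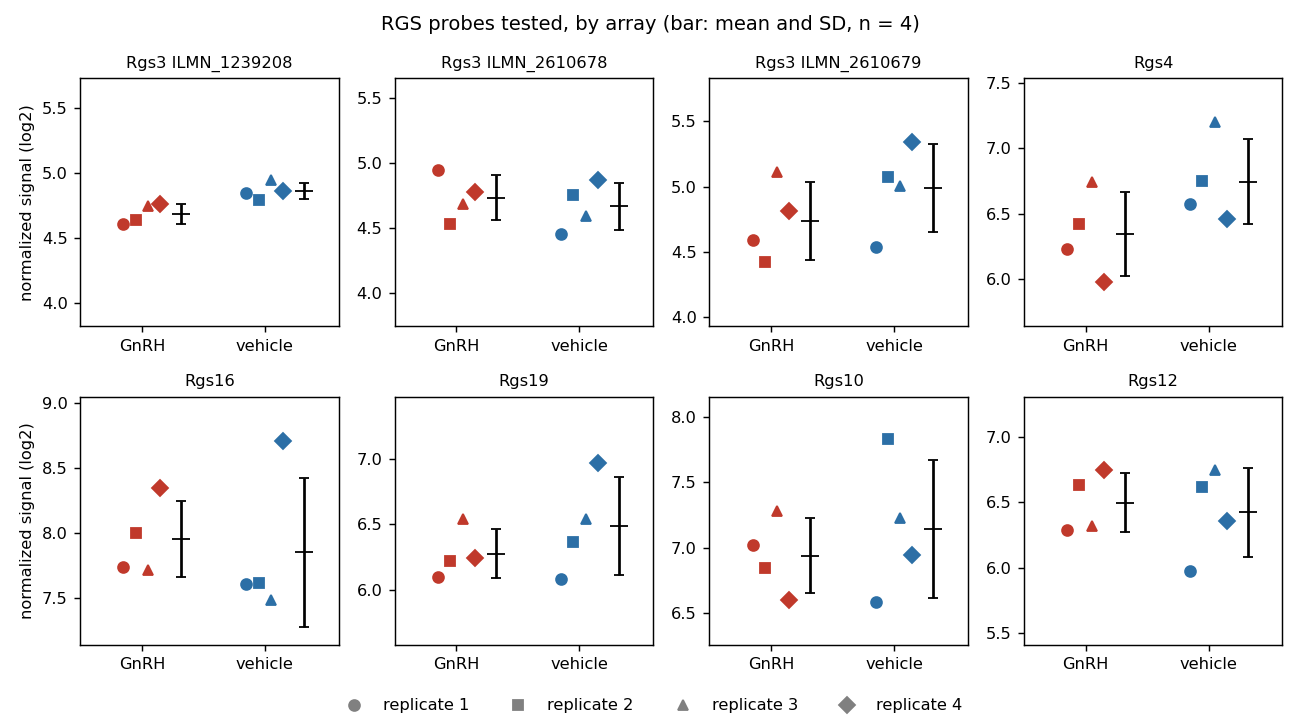
Normalized log2 signal of the 8 tested RGS probes, 1 panel per probe with its own range and 1 marker shape per replicate number, GnRH in red and vehicle in blue, with the group mean and SD (n = 4) as a bar. The groups overlap in every panel except that of Rgs3 probe ILMN_1239208, and vehicle replicate 4 stands apart for Rgs16.

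The RZ subfamily holds Rgs17 and Rgs19, proteins with a cysteine string that act on Gz and Gi. Rgs17 was not detected on any array: its raw signals were 39.3, 36.6, 34.4 and 37.7 with GnRH and 35.3, 35.9, 32.5 and 33.9 with vehicle, with detection p-values from 0.0915 to 0.459. Rgs19, first described as a Gi-interacting protein, gave 102, 91.3, 111 and 91.7 with GnRH and 88.5, 109, 110 and 103 with vehicle, so the raw ranges of the groups nearly coincided. Its normalized log2 values were 6.10, 6.22, 6.54 and 6.24 with GnRH and 6.08, 6.36, 6.54 and 6.97 with vehicle. The lowest and the highest of the 8 were both vehicle arrays. The change was -0.21 ± 0.20 (SE, 95% confidence interval -0.65 to 0.23, limma adjusted p = 1.00), and it was -0.35 without vehicle replicate 1 and -0.051 without vehicle replicate 4.

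The R12 subfamily holds the small Rgs10, which acts on Gi, and the multidomain proteins Rgs12 and Rgs14, which also bind Ras-family GTPases and carry a GoLoco motif for inactive Gi. Rgs10 gave raw signals of 179, 131, 173 and 112 with GnRH and 116, 272, 165 and 102 with vehicle. On the log2 scale these were 7.02, 6.84, 7.28 and 6.60 with GnRH and 6.58, 7.83, 7.23 and 6.94 with vehicle, with vehicle replicate 2 highest and vehicle replicate 1 lowest. The change was -0.21 ± 0.26 (SE, 95% confidence interval -0.78 to 0.36, limma adjusted p = 1.00). Without vehicle replicate 2 it was 0.021, so the sign of the Rgs10 value rested on that array.

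Rgs12 gave raw signals of 113, 116, 97.8 and 122 with GnRH and 83.9, 126, 124 and 73.3 with vehicle. The GnRH arrays lay within the range of the vehicle arrays. Normalized, they were 6.29, 6.64, 6.32 and 6.75 with GnRH and 5.97, 6.62, 6.75 and 6.36 with vehicle, a change of 0.07 ± 0.20 (SE, 95% confidence interval -0.36 to 0.51, limma adjusted p = 1.00). Rgs14 was below background on every array, at 33.9, 33.6, 29.5 and 25.9 with GnRH and 32.8, 33.8, 29.6 and 28.7 with vehicle, and its lowest detection p was 0.456.

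Spread between replicates differed among the members. Rgs16 and Rgs10 had within-group SDs of 0.45 and 0.43 on the log2 scale, at the percentiles 87.3 and 84.5 of all tested probes, whose median was 0.26. Rgs4 (0.32), Rgs19 (0.30) and Rgs12 (0.29) lay closer to that median. The precision for Rgs16 and Rgs10 was thus lower than for most tested probes.

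In the RefSeq gene table for GRCm38.p6, Rgs4 and Rgs5 are next to each other among protein-coding genes, as are Rgs16 and Rgs8. Rgs4 and Rgs16 were detected on all 8 arrays and Rgs5 and Rgs8 on none. Rgs2 lies next to Rgs13, and both were detected on no array.

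Among the other canonical RGS genes, 8 of 11 listed were on the array, and 2 were detected on all 8 arrays while 6 were detected on none. The detected genes were Rgs7 and Rgs9 of the R7 subfamily, whose proteins pair with the G protein beta subunit Gnb5. Rgs7 gave raw signals of 1043, 1071, 849 and 698 with GnRH and 914, 746, 769 and 514 with vehicle, a log2 change after normalization of 0.18 ± 0.15. Rgs9 gave 121, 110, 83.0 and 111 with GnRH and 77.6, 97.4, 92.5 and 63.9 with vehicle, a change of 0.32 ± 0.17 (SE, 95% confidence interval -0.05 to 0.68, limma unadjusted p = 0.0846, adjusted p = 1.00). Neither passed, and the normalized ranges of the groups overlapped for both. Rgs1, Rgs6, Rgs8, Rgs13, Rgs18 and Rgs20 were the 6 not detected.

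The partners that stabilise or anchor R7 proteins were also in the pull-down. Gnb5 stood at -0.11 ± 0.16 and 0.28 ± 0.23 for its 2 tested probes, Rgs7bp, the membrane anchor of R7 proteins, at -0.11 ± 0.16, and Rgs9bp, known as the anchor of Rgs9 in photoreceptors, at -0.24 ± 0.14 and 0.05 ± 0.17 (log2 change ± SE). Of 24 listed genes for other RGS-domain proteins and RGS partners 20 were on the array and 14 were tested, with 0 higher and 0 lower. Of their 22 probes 0 had an unadjusted p below 0.05 (limma), beside 2.91% of all tested probes. Their median change was -0.01. Those with the lowest p besides Rgs9bp were the sorting nexins Snx13 (0.37 ± 0.24) and Snx14 (0.45 ± 0.34) and the kinase anchor Akap10 (0.27 ± 0.20); the second probes gave 0.14 ± 0.31 for Snx14 and 0.08 ± 0.16 for Akap10.

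G protein subunits, of which RGS proteins act on the active alpha subunit, were likewise without a called change. Of 29 heterotrimeric G protein subunits 28 were on the array and 17 were tested, with 0 higher and 0 lower and a median change of -0.02. Of their 20 probes 0 had an unadjusted p below 0.05 (limma), beside 2.91% of all tested probes. Gnaq, the Gq alpha subunit, gave normalized log2 values of 10.70, 10.65, 10.54 and 10.51 with GnRH and 10.62, 10.60, 10.56 and 10.68 with vehicle on its tested probe. Its change was -0.02 ± 0.12 (95% confidence interval -0.29 to 0.26), and a pair of further Gnaq probes was detected on no array. Gna11, the G11 alpha subunit, stood at -0.12 ± 0.15 (95% confidence interval -0.45 to 0.21). Gnaq, Gna11, Gnb5 and Rgs7bp were named for their roles.

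By lowest p the subunits were Gng2 (-0.39 ± 0.19), Gnb4 (-0.28 ± 0.14), Gna12 (-0.48 ± 0.29) and Gnas, the Gs alpha subunit (0.34 ± 0.22), all with a limma adjusted p of 1.00. Second probes gave 0.09 ± 0.48 for Gng2 and -0.04 ± 0.15 for Gnb4. Of 31 effectors of Gq, Gs and Gi 28 were on the array and 19 were tested, with 0 higher and 0 lower and a median change of -0.05. In this list 1 of 21 probes had an unadjusted p below 0.05 (limma), beside 2.91% of all tested probes. The probe was that of Adcy6, an adenylyl cyclase, at -0.35 ± 0.15. It was followed by the phosphodiesterase Pde4d (0.34 ± 0.20) and the protein kinase C genes Prkcd (0.28 ± 0.18) and Prkcz (-0.23 ± 0.16, with -0.16 ± 0.21 for its second probe).

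The same arrays registered large changes elsewhere. Of 16 tested immediate early transcription factors 11 were higher with GnRH and 0 lower (limma adjusted p below 0.05), with a median log2 change of 1.88 over the list's probes. Fos gave raw signals of 9726, 8528, 9915 and 9477 with GnRH and 472, 742, 665 and 189 with vehicle, a log2 change of 4.30 ± 0.27 (limma adjusted p = 2.36e-05). The lower end of its 95% confidence interval, 3.70, lay above the highest upper end among the 8 RGS probes, 0.70. Egr1 (3.80 ± 0.19), Egr2 (6.39 ± 0.12) and Fosb (5.74 ± 0.20) were likewise higher, and Egr4 was detected on all 4 GnRH arrays and on no vehicle array.

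**Figure D3:**
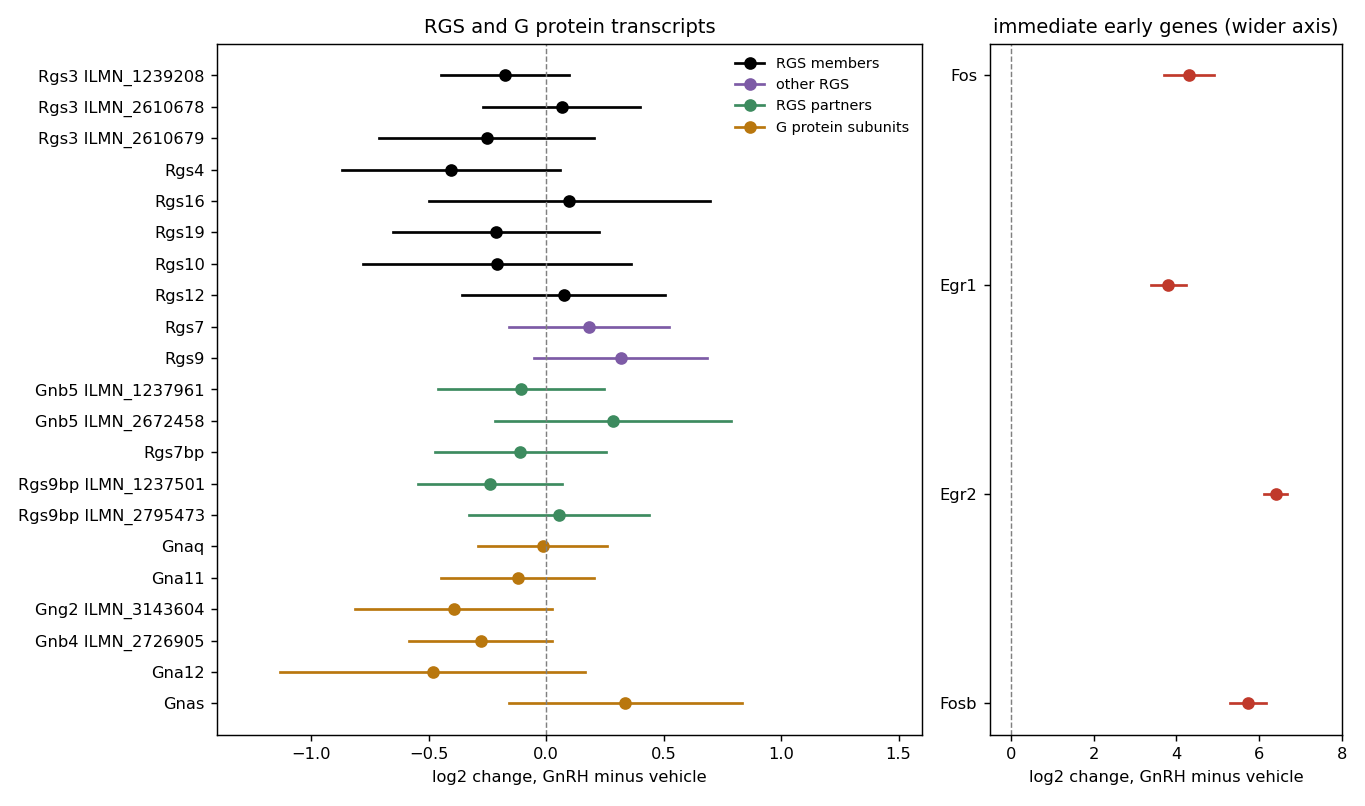
Log2 change (GnRH minus vehicle, point) with its 95% confidence interval (line) for the tested RGS probes, the other RGS genes, RGS partners and G protein subunits on the left, and for Fos, Egr1, Egr2 and Fosb on the right with a wider axis, n = 4 arrays per group. Each interval on the left holds 0, and the RGS intervals end within -0.87 and 0.70, while the intervals on the right begin at 3.39 or higher.

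The genes whose pattern over the 8 arrays was most like that of Rgs4 were found by Euclidean distance between log2 values centred on each probe's vehicle mean. They were Kbtbd8, Dcx, Slirp, Tox3 and Ttll12, at distances of 0.31 to 0.37, where the median over all tested probes was 1.30. Their log2 changes ran from -0.36 to -0.31, and the choice by this distance itself favours changes near that of Rgs4. For Rgs3 probe ILMN_1239208, the member with the second lowest p, the nearest genes were Kctd9, St6galnac6, Rngtt, Ptpdc1 and Inppl1, at distances of 0.13 to 0.18 against a median of 0.82. These distances are a description over 8 arrays, and probes of low spread lie close to many others by this measure.

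Other processing left every member below the threshold. Over 21 alternative settings, which gave 160 values for the 8 probes, 0 values passed, and the lowest adjusted p was 0.130 (limma), for Rgs4 with array weights, where its change was -0.65 ± 0.18. Rgs4, Rgs19 and the Rgs3 probes ILMN_1239208 and ILMN_2610679 kept a negative sign in all settings that tested them, while Rgs10, Rgs12, Rgs16 and Rgs3 probe ILMN_2610678 changed sign in at least 1.

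**Figure D4:**
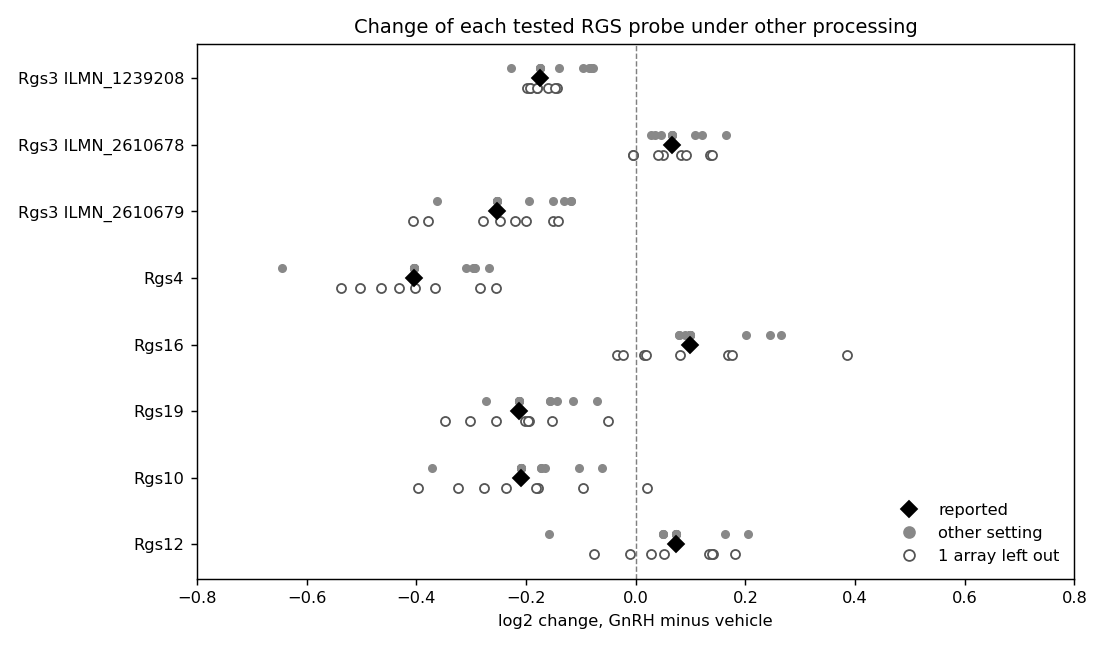
Log2 change (GnRH minus vehicle) of the 8 tested RGS probes as reported (diamonds), under other processing settings (grey points) and with 1 array left out (open circles). The values run from -0.65 for Rgs4 to 0.38 for Rgs16, and those of Rgs10, Rgs12, Rgs16 and Rgs3 probe ILMN_2610678 fall on both sides of 0.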

How the data were processed

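RNA recovered with an ELAVL1 antibody (5 µg, 6 washes, per the labels) from 4 GnRH and 4 vehicle samples was measured on Illumina bead arrays. The authors deposited a linear signal intensity per probe, not normalized between arrays as far as its values show, with a detection p-value beside each signal per the file headers. They also deposited processed intensity values, with array medians of 38.3 to 38.6, by a method that the sources used here do not give. These follow the ranks of the signal table (Spearman's rho across probes at least 0.997) and served as an alternative. No source used here names the scanner software or a genome build, and coordinates are left out for that reason. Groups and replicate numbers come from the sample titles.

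Probes took their gene from the platform annotation, updated by gene identifier: 1 symbol was given for 23978 of 25697 probes, several for 0 and none for 1719; the RefSeq table matched 23962. The function neqc (limma 3.58.1, R 4.3.3) applied normexp background correction using the detection p-values, an offset of 16, quantile normalization and log2. Quantile normalization removes differences in total yield together with array brightness. The 11318 probes (44.0%) detected (p below 0.05) on 4 or more of the 8 arrays were tested one by one with lmFit and eBayes, two-sided, with Benjamini-Hochberg adjustment over all of them. The fit was tested on simulated data. Alternatives covered background and offset, normalization, the authors' values, the filter, the variance model, array weights, the replicate number as a block, the sample number, probes averaged per gene and each array left out.

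Members, lists and alternatives were chosen with earlier results of these data known. Named are all members, from each pathway list up to 4 tested genes with the lowest unadjusted p, 5 genes nearest in pattern to each of a pair of members, and Fos; genes named for their role are stated as such. Probe sequences were not used here.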

Additional observations from a re-analysis of the deposited data

Results flagged for a closer look

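In 3 of the 82 groups of 4 arrays examined, 1 array stood far from the other 3 by Dixon's test. The set taken held 42 probes, of which that of Gnrhr had no spread after normalization and gave no group. Chance flags about 1 in 20 groups. For Rgs16, vehicle replicate 4 stood at 8.71 on the normalized log2 scale and the other vehicle arrays between 7.49 and 7.62; its raw signal was 291, against 197 to 238. For Gng2 (probe ILMN_3143604), a G protein gamma subunit, GnRH replicate 3 stood at 10.59 and the other GnRH arrays between 9.83 and 9.95. For Gnas, the Gs alpha subunit, GnRH replicate 2 stood at 6.01 and the other GnRH arrays between 6.68 and 6.74.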

How the results depend on the processing

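The count of RGS probes past the threshold was 0 under all 21 alternatives, including the one that tested all 17 probes with no filter. The 160 values for single probes are refits of the same 8 probes and are not independent. Of these values 152 kept their sign, 8 reversed and 6 had an unadjusted p below 0.05 (limma). For Rgs4 these p-values were 0.0045 with array weights, 0.0141 with the replicate block, 0.0292 without GnRH replicate 3 and 0.0472 without vehicle replicate 4. The others were 0.0428 for Rgs3 probe ILMN_2610679 with array weights and 0.00999 for Rgs3 probe ILMN_1239208 with no filter. With no filter the change of ILMN_1239208 stayed at -0.17, and its SE was 0.05, against 0.12 as reported. All 6 were negative changes, and none passed after adjustment. Other settings made the Rgs4 change smaller. It was -0.27 without between-array normalization (limma unadjusted p = 0.344) and -0.31 with median scaling (limma unadjusted p = 0.257). Without GnRH replicate 4 or vehicle replicate 3 its limma unadjusted p was 0.218 and 0.238. Reversed values were 0.021 for Rgs10 without vehicle replicate 2; -0.16, -0.0097 and -0.077 for Rgs12 with array weights, without GnRH replicate 4 and without vehicle replicate 1; -0.034 and -0.024 for Rgs16 without GnRH replicate 4 and without vehicle replicate 3; and -0.0045 and -0.0054 for Rgs3 probe ILMN_2610678 without GnRH replicate 1 and without vehicle replicate 1. With 1 array left out the ranges were -0.40 to 0.021 for Rgs10 and -0.077 to 0.18 for Rgs12. They were -0.034 to 0.38 for Rgs16 and -0.0054 to 0.14 for Rgs3 probe ILMN_2610678. The reported values of these sign-changing probes lay within 1 SE of 0. For the probes that kept their sign, the ranges were -0.54 to -0.25 for Rgs4 and -0.35 to -0.051 for Rgs19. They were -0.41 to -0.14 for Rgs3 probe ILMN_2610679 and -0.20 to -0.14 for Rgs3 probe ILMN_1239208. The reported values of the probes that kept their sign lay more than 1 SE below 0. Over all tested probes the 30 higher and 0 lower became 14 higher with no filter, which tests more probes, and 46 higher and 4 lower with array weights, where the cause was not tested. With 1 array left out the count of higher probes ran from 17 (without vehicle replicate 3) to 27, and that of lower probes from 0 to 1 (without vehicle replicate 1). Without between-array normalization the median of all tested probes was 0.11, against which the values of that setting are to be read. The replicate block gave 43 higher and 0 lower probes and 0 RGS probes, with Rgs4 at an unadjusted p of 0.0141 and an adjusted p of 0.758 (limma). Same-numbered samples deviated from their group means with correlations across probes of 0.72, -0.23, 0.26 and 0.65. These values differ in sign and do not settle whether same-numbered samples belong together, which the labels do not state. The reported fit did not take the numbers as pairs, and the replicate block is given as an alternative. Signal near background limits what can be said of Rgs3, and the 4 undetected members have no change here.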

Other observations

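Pecam1 and Cdh5, adhesion molecules known from endothelium, were detected on all 8 arrays of this gonadotrope line, and Kdr, also of endothelium, and Acta2, of smooth muscle, on at most 6 by a single probe. The collagen genes, Pdgfra and the blood markers were not detected. Cdh5 had raw signals of 918, 946, 410 and 569 with GnRH and 699, 413, 440 and 481 with vehicle, a log2 change of 0.28 ± 0.30 after normalization. One Pecam1 probe had raw signals of 751, 944, 606 and 643 with GnRH and 652, 619, 669 and 522 with vehicle, a change of 0.11 ± 0.18, and a second probe gave 0.13 ± 0.23. Neither passed (limma adjusted p = 1.00 for each).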
